A study of Mus musculus with 12 samples.

Results

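Transcripts of 7 genes for cytoplasmic intermediate filament proteins were followed in adult mouse cardiomyocytes with and without desmin. The genes are Des (desmin), Vim (vimentin), Synm (synemin), Nes (nestin), Sync (syncoilin), Krt8 and Krt18 (keratins 8 and 18), picked by their symbols from the 21493 genes counted in each library. All 7 were found in every library, and all 7 passed the filter on low counts together with 13158 genes in all. Cardiomyocytes were isolated from hearts of 3-month-old mice by perfusion with trypsin and collagenase D and taken directly after isolation. The 4 groups were Des+/+ non-swim, Des+/+ swim, Des-/- non-swim and Des-/- swim, with 3 libraries each, where swim marks mice that underwent swimming exercise as a mild muscular stress. According to the methods of the study, mice of both genotypes had a 129SV background and were homozygous for a GFP reporter under the αMHC promoter, which is active in cardiomyocytes, and animals were taken without regard to sex. The labels do not mention the reporter. Each library pooled the cells of several mice, so the spread between libraries is that between pools. The swimming schedule and the part of Des removed by the null allele are not given in the sources used here.

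Intermediate filaments are rope-like polymers of the cytoskeleton that resist mechanical strain. In heart muscle desmin is the main one: it surrounds the Z-discs and ties neighbouring myofibrils to each other, to the intercalated discs, the costameres, the mitochondria and the nucleus. Synemin and syncoilin join the desmin network and bind the dystrophin complex, vimentin and nestin are typical of mesenchymal, vascular and progenitor cells, and keratins 8 and 18 form paired filaments in simple epithelia such as the mesothelium that covers the heart.

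The members lie on 6 chromosomes of GRCm38. Des is at chr1:75360329-75368579 on the plus strand, Vim at chr2:13573927-13582826 on the plus strand, Nes at chr3:87971078-87980451 on the plus strand, Sync at chr4:129287617-129308559 on the plus strand and Synm at chr7:67730160-67759742 on the minus strand. Krt8, at chr15:101996698-102004482 on the minus strand, and Krt18, at chr15:102028180-102032027 on the plus strand, are neighbours that point away from each other across 23697 bases. Exons of Sync share 782 bases with Rbbp4 on the opposite strand, and exons of Synm share 84 bases with Ttc23. A pseudogene copy of Krt8 is annotated, so reads of Krt8 could have been divided with it.

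Promoter stretches are shown for the 2 genes that were lower in Des-/- cells with and without swimming (Des and Sync). They are also shown for the keratin pair, whose levels were high in the same libraries. Each stretch is the 100 bases before the RefSeq or the GENCODE start, whichever lies further upstream. Between its end and the RefSeq start lie 0 bases for Des, 4 for Sync, 140 for Krt8 and 36 for Krt18. They are read 5′ to 3′ on the strand of the gene from the RefSeq promoter table of GRCm38.p6, in which all 7 members were matched, and capitals mark an E-box (CANNTG), the motif that muscle basic helix-loop-helix factors can bind.
Des, chr1:75360192-75360291, plus strand: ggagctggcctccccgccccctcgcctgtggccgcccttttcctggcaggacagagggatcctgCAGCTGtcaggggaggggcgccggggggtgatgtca
Sync, chr4:129287517-129287616, plus strand: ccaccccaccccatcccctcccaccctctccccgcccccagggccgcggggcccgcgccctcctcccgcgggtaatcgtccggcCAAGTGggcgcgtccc
Krt8, chr15:102004483-102004582, minus strand: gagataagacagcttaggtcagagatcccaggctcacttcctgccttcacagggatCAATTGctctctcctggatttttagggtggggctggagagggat
Krt18, chr15:102028080-102028179, plus strand: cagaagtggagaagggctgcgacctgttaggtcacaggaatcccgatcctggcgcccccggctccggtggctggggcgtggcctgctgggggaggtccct

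Over the full 250 bases before the RefSeq start, both strands searched, Des and Krt8 held 2 E-boxes each, Sync, Synm and Krt18 held 1 each, and Vim and Nes held 0. E-boxes were found in 66.2% of 32851 promoter windows of this length, so their presence did not set the members apart. A TATA-like element (TATAAA) was found in Vim, 1 copy, and in 12.4% of all windows. The CArG box, the serum response factor motif, was found in none of the 7 windows and in 1.47% of all windows. A match or its absence describes these letters and says nothing of binding.

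Reads assigned to genes ranged from 4320819 to 12072443 per library and were lowest in Des-/- swim (4320819 to 6521963). The share of uniquely aligned reads that fell in no gene moved with the groups, at 34.0 to 39.3% in Des+/+ non-swim, 45.9 to 50.4% in Des+/+ swim, 34.2 to 52.3% in Des-/- non-swim and 57.2 to 64.5% in Des-/- swim. The lowest of the Des-/- values was that of non-swim replicate 3, and the part of this share in the results was not tested. Levels are given as CPM, counts per 1000000 reads after adjustment for library composition, and 3 reads corresponded to 0.262 to 0.656 CPM. Replicate 3 of both Des-/- groups stood at the far end of the first principal component, which held 48.9% of the variance. In these bulk libraries fewer cells of a type and less RNA per cell cannot be told apart. The 8 cardiomyocyte markers (Myh6, Myl2, Tnnt2, Tnni3, Actn2, Ttn, Ryr2, Pln) summed to 43122 to 69952 CPM in Des+/+ non-swim, 21788 to 40299 in Des+/+ swim, 4047 to 19823 in Des-/- non-swim and 11033 to 19636 in Des-/- swim. A change is given as a log2 difference, Des-/- minus Des+/+ or swim minus non-swim, and counts as called where the adjusted p of edgeR's quasi-likelihood test over all genes was under 0.05. All 8 cardiomyocyte markers were called lower in Des-/- without swimming, and after swimming 1 (Pln) was. The 8 fibroblast markers, collagens included, summed to 5998 to 7214, 5151 to 6332, 11747 to 38488 and 8089 to 14121 CPM in the same order, with 7 of 8 higher in Des-/- without swimming. Macrophage markers (7 of 8 higher without swimming) moved the same way. So did genes of the response to cell isolation, such as Fos and Jun (7 of 8 higher without and 6 of 8 after swimming). The highest fibroblast and the lowest cardiomyocyte sum were both in Des-/- non-swim replicate 3.

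Desmin transcripts were the most abundant of the family in Des+/+ non-swim cells and fell to a small remainder in Des-/- cells. In Des+/+ non-swim the 3 libraries held 1472, 3647 and 1982 CPM of Des, and in Des-/- non-swim 72.2, 56.2 and 50.3. The groups did not overlap, and the lowest Des+/+ library was 20.4-fold above the highest Des-/- library. The difference was -5.31 on the log2 scale (SE 0.37, adjusted p = 0.000157), a 39.7-fold lower level in Des-/-. After swimming Des+/+ libraries held 1636, 973 and 1210 CPM and Des-/- libraries 91.3, 97.5 and 100.5, again without overlap. That difference was -3.72 (SE 0.35, adjusted p = 0.00323), a 13.2-fold lower level.

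Des reads were therefore not absent from the null: 446 to 679 reads were counted in each Des-/- library, against 8502 to 31203 in Des+/+. The remaining mean was 2.52% of the Des+/+ mean without swimming and 7.58% after swimming. Whether these reads lie inside or outside the deleted part was not tested, so the level checks the genotype labels but does not measure intact desmin mRNA. Des and the cardiomyocyte markers moved together among the Des+/+ libraries: per 1000 reads of those markers Des gave 34.1 to 52.1 reads in Des+/+ non-swim and 39.6 to 44.7 in Des+/+ swim. The Des-/- libraries gave 2.83 to 12.4 and 4.73 to 9.11, below every Des+/+ library.

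**Figure D1:**
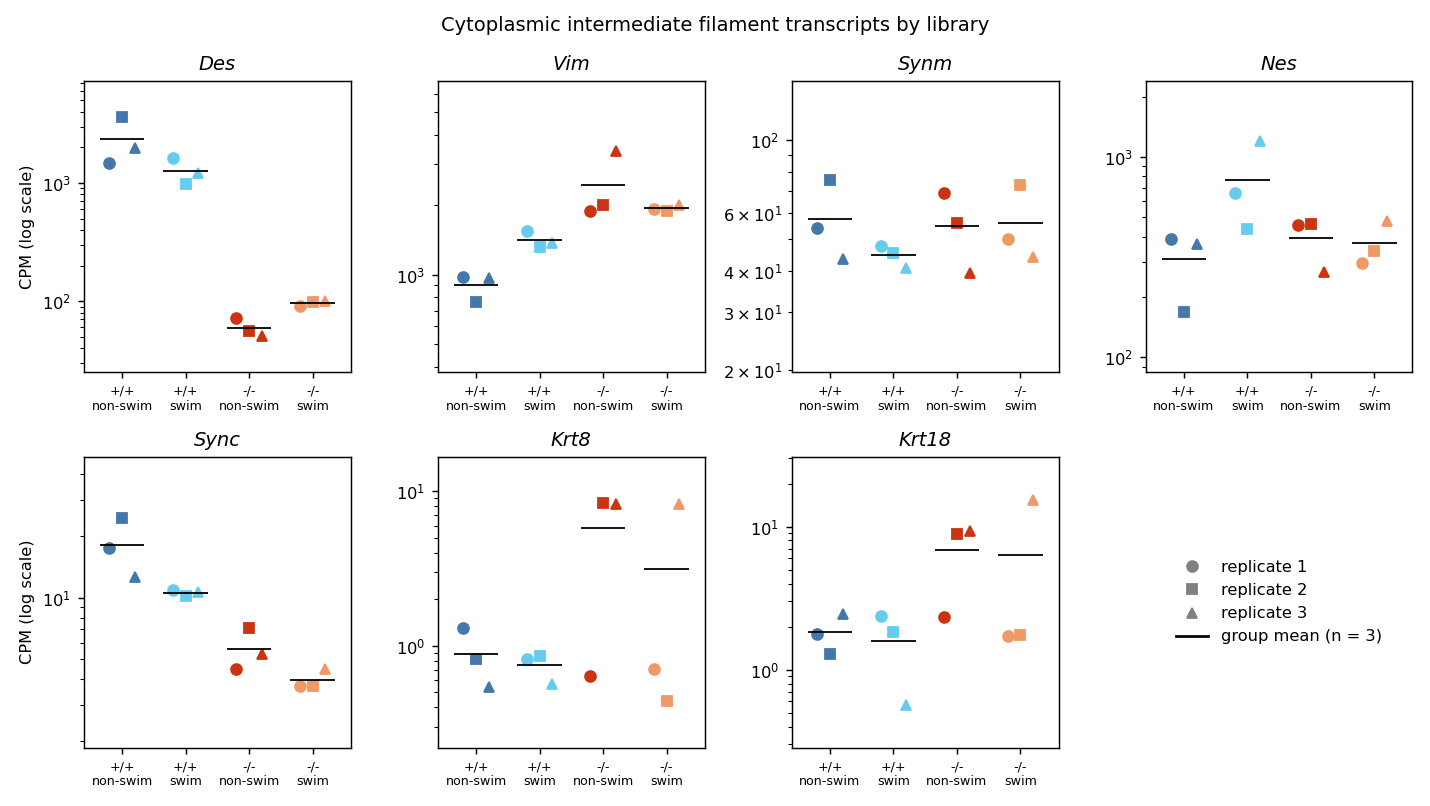
CPM (log axes) of the 7 genes in each of 12 libraries, by group, with replicates 1, 2 and 3 as circles, squares and triangles and group means as lines. Des lies between 973 and 3647 in Des+/+ and between 50.3 and 100.5 in Des-/-, Vim is lowest in Des+/+ non-swim, and Krt8 and Krt18 are high in the same 3 Des-/- libraries.

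Vimentin was higher in Des-/- cells without swimming. Its level was 981, 761 and 970 CPM in Des+/+ non-swim and 1880, 2002 and 3414 CPM in Des-/- non-swim, with no overlap. The change was 1.43 (SE 0.24, adjusted p = 0.00179), or 2.69-fold. The highest value came from replicate 3, the library with the highest fibroblast sum, and without that library the change was 1.11 and still passed the test.

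After swimming the vimentin levels of the genotypes lay closer, at 1542, 1312 and 1370 CPM in Des+/+ and 1923, 1878 and 2000 CPM in Des-/-. The groups still did not overlap, but the change of 0.46 (SE 0.24, adjusted p = 0.214) did not pass the test. Vim moved with the fibroblast markers in the genotype comparison without swimming. Per 1000 reads of the fibroblast list there were 127 to 150 Vim reads in Des+/+ non-swim and 88.7 to 170 in Des-/- non-swim. These ranges overlap, as do those after swimming, 216 to 265 in Des+/+ and 142 to 232 in Des-/-. Scaled to that list, the difference without swimming was -0.12 (adjusted p = 0.828), where the median of all genes was -1.37. Against the endothelial markers, another vimentin-rich cell type, Vim stood at 118 to 137 reads per 1000 in Des+/+ non-swim and at 214 to 624 in Des-/- non-swim, with no overlap. After swimming these values were 115 to 189 and 151 to 232, with overlap. Macrophages also hold vimentin, and their markers were higher in Des-/- without swimming as given above. The part of any of these cell types in the Vim result was not tested.

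Nestin, a large intermediate filament protein found in progenitor and vascular cells, was not called between genotypes. Its level was 390, 169 and 368 CPM in Des+/+ non-swim and 458, 465 and 266 CPM in Des-/- non-swim, and the change was 0.36 (SE 0.40, adjusted p = 0.526). After swimming it was 657, 436 and 1195 CPM in Des+/+ and 294, 339 and 478 CPM in Des-/-. These groups overlapped through a single pair of libraries, and the change of -1.04 (SE 0.41, adjusted p = 0.111) did not pass the test.

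Of the desmin partners, syncoilin was lower in Des-/- cells and synemin was not called. Sync stood at 17.4, 24.4 and 12.6 CPM in Des+/+ non-swim and at 4.46, 7.13 and 5.34 CPM in Des-/- non-swim. The groups did not overlap, and the change was -1.68 (SE 0.27, adjusted p = 0.00135), a 3.21-fold lower level. After swimming it was 10.9, 10.2 and 10.7 CPM in Des+/+ and 3.70, 3.72 and 4.47 CPM in Des-/-, resting on 17 to 29 reads per Des-/- library.

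The change after swimming was -1.41 (SE 0.28, adjusted p = 0.0161), again without overlap. It lost the call without Des+/+ swim replicate 3 (-1.41, adjusted p = 0.0603) and without Des-/- swim replicate 1 (-1.36, adjusted p = 0.0515). The cardiomyocyte sum was also lower in Des-/- in both conditions. In Des-/- swimming Sync changed by -0.51 (adjusted p = 0.376). All 8 cardiomyocyte markers had positive changes there (median 0.48), with 0 called by edgeR. Per 1000 reads of these markers Sync gave 0.266 to 0.405 reads in Des+/+ non-swim and 0.360 to 1.32 in Des-/- non-swim. After swimming these ratios were 0.270 to 0.467 and 0.189 to 0.405, so the genotypes overlapped in both conditions. Scaled to the cardiomyocyte list, the Sync difference was 1.05 without swimming (adjusted p = 0.123) and -0.48 after swimming (adjusted p = 0.562), where the medians of all genes were 2.80 and 0.92. The part of cardiomyocyte content in the Sync result was not tested.

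Synemin lay between 39.5 and 75.5 CPM in all libraries. Synm was 54.1, 75.5 and 43.7 CPM in Des+/+ non-swim and 68.9, 55.8 and 39.5 CPM in Des-/- non-swim, with overlap. After swimming it was 47.7, 45.4 and 40.8 CPM in Des+/+ and 50.2, 73.0 and 44.2 CPM in Des-/-. The genotype changes were -0.08 (95% interval -0.63 to 0.47, adjusted p = 0.839) and 0.32 (-0.24 to 0.87, adjusted p = 0.421). The sign of the first turned under several scalings. Against the cardiomyocyte markers, Synm gave 0.921 to 1.25 reads per 1000 in Des+/+ non-swim and 2.82 to 9.77 in Des-/- non-swim, with no overlap.

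The keratins were near the counting limit in most libraries and high in the same 3 Des-/- libraries. Krt8 had 4 to 11 reads in each Des+/+ library, and 6, 74 and 95 reads in Des-/- non-swim and 5, 2 and 54 reads in Des-/- swim. Krt18 had 4 to 27 reads in each Des+/+ library, and 22, 79 and 106 reads in Des-/- non-swim and 12, 8 and 100 reads in Des-/- swim. In CPM, Krt8 was 8.38, 8.31 and 8.31 in Des-/- non-swim replicates 2 and 3 and Des-/- swim replicate 3, and at most 1.30 in the other 9 libraries. Krt18 was 8.95, 9.27 and 15.4 CPM in those 3 libraries and at most 2.44 in the others.

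All genotype comparisons of the keratins overlapped and none passed the test. The Krt8 changes were 2.71 (SE 1.05, adjusted p = 0.0685) and 2.06 (SE 1.09, adjusted p = 0.222), and the Krt18 changes 1.89 (SE 0.85, adjusted p = 0.108) and 1.97 (SE 0.87, adjusted p = 0.151). The changes without swimming depended on the setting. Both were called when Des-/- swim replicate 3 was left out (adjusted p = 0.0196 for Krt8 and 0.0268 for Krt18) and under cardiomyocyte scaling, which moved the median of all genes to 2.80. Krt8 was also called by DESeq2 (0.0243), with total counts (0.0423), without Des-/- non-swim replicate 1 (0.0269) and without replicate 3 of both Des-/- groups (0.0434), and Krt18 with only the libraries compared (0.0473). Neither was called when scaled to the mesothelial list, where the median of all genes was -0.44. Only 11 of 13158 genes were called under that scaling, so it cannot decide whether the keratins changed. Without Des-/- swim replicate 3 the Krt8 change after swimming was -0.35 and that of Krt18 0.10. Mesothelial markers were high in the same 3 libraries, with sums of 347, 176 and 352 CPM, against 18.1 to 83.4 CPM in the other 9. Of 8 mesothelial markers, 6 were analysed here, none was at 0 in any library, and 0 of 6 were called by edgeR. Per 1000 reads of this list, Krt8 gave 8.37 to 47.2 reads and Krt18 20.6 to 65.7 over all 12 libraries. The part of mesothelial cells in the keratin result was not tested.

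**Figure D2:**
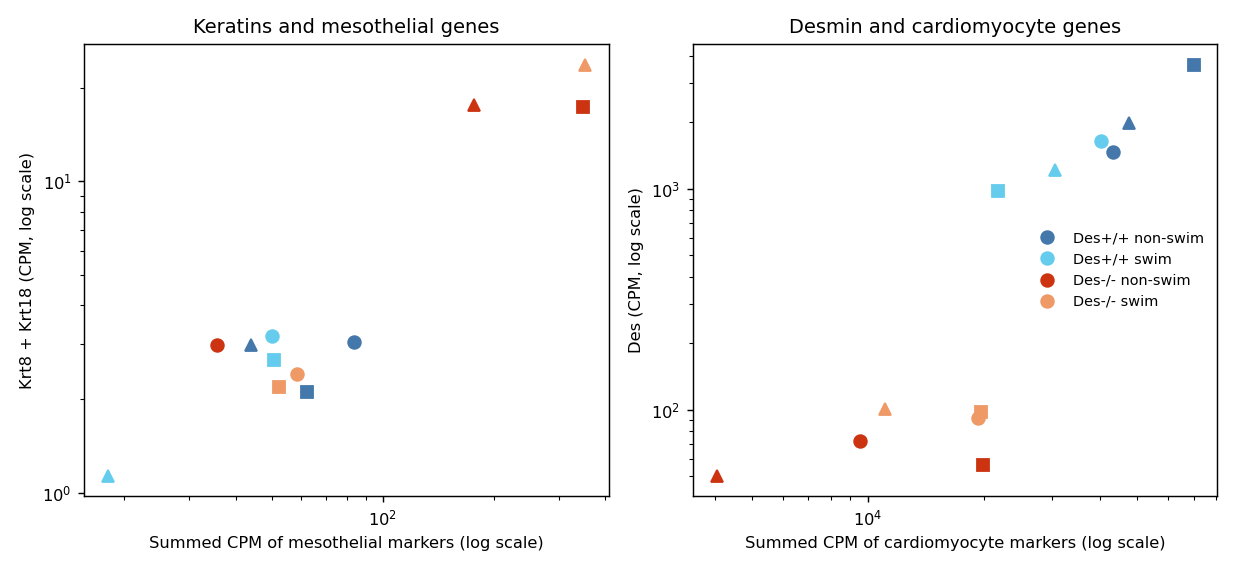
Summed CPM of marker lists (x, log axis) against CPM of Krt8 plus Krt18 (left) and Des (right, both y axes log), 1 point per library, with colours for groups and circles, squares and triangles for replicates 1, 2 and 3. The 3 libraries with mesothelial sums of 176 to 352 CPM hold the highest keratin levels, while Des-/- libraries with cardiomyocyte sums up to 19823 CPM hold at most 100.5 CPM of Des.

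In counts, 3 of 7 members passed the test between genotypes without swimming, 1 higher (Vim) and 2 lower (Des and Sync). Over all 13158 genes 32.0% passed, 14.0% higher and 18.0% lower, so a change in a member was not unusual. After swimming 2 of 7 passed, both lower (Des and Sync), beside 10.6% of all genes and 5.57% in the lower direction. Des is disrupted in Des-/- mice, so its calls and its lack of overlap follow from the genotype. The other members called were Vim and Sync without swimming and Sync after swimming. In each of these comparisons 3 of 7 members (Des, Vim and Sync) had groups that did not overlap, as did 47.9% of all genes without swimming and 35.9% after swimming. The genotype comparisons share no library with each other, but each shares a group with each swimming comparison. Same-numbered libraries of Des-/- non-swim and Des-/- swim deviated together (correlations 0.36, 0.32 and 0.60), so the genotype comparisons need not be independent.

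**Figure D3:**
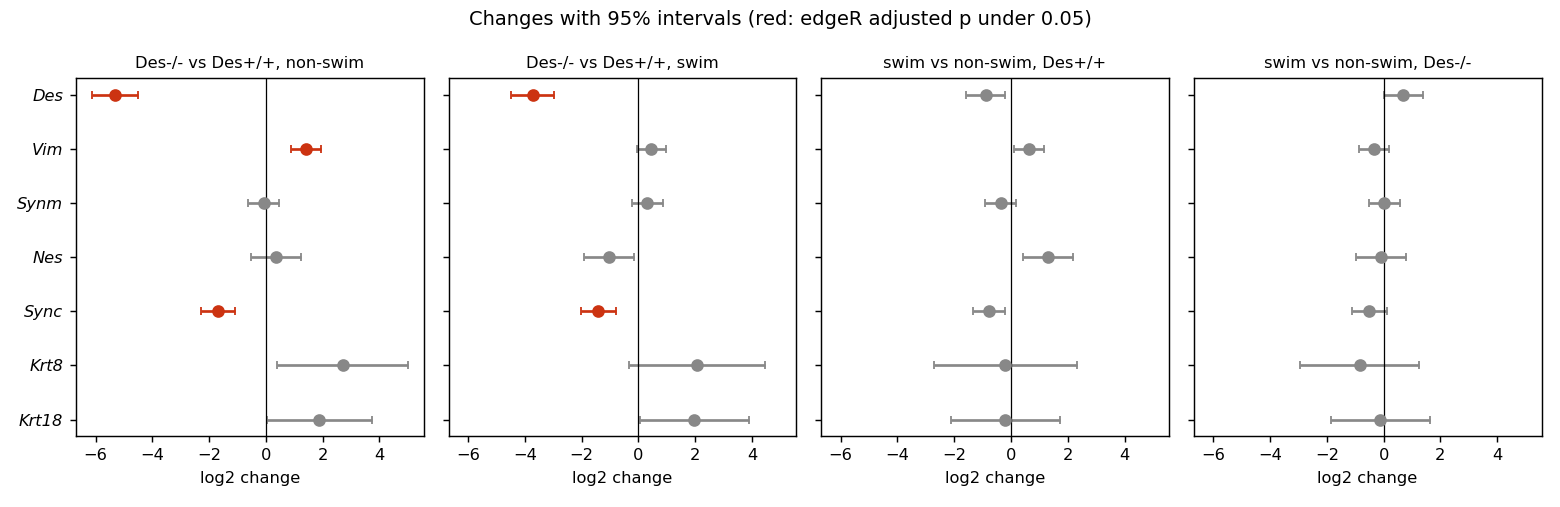
log2 changes with 95% intervals for each gene in the genotype comparisons (left pair of panels) and the swimming comparisons (right pair), in red where edgeR adjusted p was under 0.05. Des and Sync are red in both genotype panels and Vim in that without swimming, and no gene is red for swimming.

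Swimming changed no member past the threshold. In Des+/+ cells 0 of 7 passed in edgeR, beside 0.0912% of all genes. At an unadjusted p under 0.05 there were 4 of 7, beside 20.5% of all genes, and DESeq2 called 2, beside 7.89% of the genes to which it gave an adjusted p. Nes was 390, 169 and 368 CPM without and 657, 436 and 1195 CPM with swimming, without overlap, at a change of 1.30 (SE 0.41, adjusted p = 0.128). Vim differed by 0.64 (SE 0.24, adjusted p = 0.175) and Sync by -0.78 (SE 0.26, adjusted p = 0.144), also without overlap, and Des by -0.90 (SE 0.31, adjusted p = 0.154) with overlap. DESeq2 called Nes (adjusted p = 0.0213) and Vim (adjusted p = 0.0454), and edgeR called Vim when replicate 3 of both Des-/- groups was left out (adjusted p = 0.0342). Groups without overlap were found for 3 of 7 members and for 31.3% of all genes. The endothelial markers summed to 6444 to 7723 CPM in Des+/+ non-swim and 8160 to 11410 CPM in Des+/+ swim, also without overlap. Of these markers 0 of 8 were called by edgeR. Per read of the endothelial list, the Des+/+ groups overlapped for Nes and for Vim. Per read of the fibroblast list, they did not overlap for Vim. The part of endothelial cells in the Nes and Vim values was not tested.

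In Des-/- cells 0 of 7 passed in edgeR, beside 0.0228% of all genes. At an unadjusted p under 0.05 there was 1 of 7, beside 16.7% of all genes, and DESeq2 called 0, beside 2.65%. Des itself was 72.2, 56.2 and 50.3 CPM without and 91.3, 97.5 and 100.5 CPM with swimming. These groups did not overlap, as for 19.4% of all genes, and the change was 0.70 (SE 0.32, adjusted p = 0.297). Vim changed by -0.33 (adjusted p = 0.493), Nes by -0.10 (adjusted p = 0.922) and Sync by -0.51 (adjusted p = 0.376). Synm, Krt8 and Krt18 were not called in either swimming comparison, at adjusted p of 0.423 to 0.970.

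The difference between the genotypes in their swimming response was tested as an interaction. No member was called by edgeR, nor was any of the 13158 genes (0%), the smallest adjusted p being 0.174. At an unadjusted p under 0.05 there were 3 of 7 members, beside 16.3% of all genes, and DESeq2 called 1, beside 3.84%. The interaction of Des was 1.59 (SE 0.44, adjusted p = 0.199), opposite in sign in its parts: -0.90 in Des+/+ and 0.70 in Des-/-. DESeq2 called it (adjusted p = 0.0224), and scaled to the cardiomyocyte list it was -0.24, where the median of all genes was -1.84. For Vim it was -0.97 (adjusted p = 0.222), for Nes -1.40 (adjusted p = 0.264) and for Sync 0.27 (adjusted p = 0.740).

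The composition of the family was compared per length, as CPM per kilobase of merged exons, since longer transcripts give more reads. Des made up 68.8% ± 12.4 (SD, n = 3) of the summed level in Des+/+ non-swim, 44.0% ± 5.17 in Des+/+ swim, 2.79% ± 1.08 in Des-/- non-swim and 5.09% ± 0.223 in Des-/- swim. Vim made up 23.3% ± 8.74, 39.3% ± 4.97, 83.3% ± 6.53 and 80.8% ± 3.18 in the same order. Nes followed with 6.13%, 15.3%, 11.1% and 11.3%. The ratio of Vim to Des was 0.165 to 0.527 in Des+/+ non-swim, 0.746 to 1.07 in Des+/+ swim, 20.6 to 53.7 in Des-/- non-swim and 15.2 to 16.7 in Des-/- swim. These are shares of RNA in mixed libraries, with no test.

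In order of level per kilobase, Des+/+ non-swim cells had Des (631 ± 303, SD, n = 3), Vim (191 ± 26.1), Nes (48.2 ± 18.9), Synm (7.28 ± 2.05), Sync (6.35 ± 2.07), Krt18 (1.27 ± 0.402) and Krt8 (0.452 ± 0.195). Of these neighbours Synm and Sync overlapped. In Des+/+ swim cells Des (339 ± 89.5) and Vim (297 ± 25.2) overlapped, as did the keratins. In both Des-/- groups the order was Vim, Nes, Des, Synm, Krt18, Krt8 and Sync, and neighbours from Synm down overlapped. The summed level of all 7 was 885 ± 262, 766 ± 135, 607 ± 161 and 506 ± 34.3 CPM per kilobase over the 4 groups. Without Des it was 206 to 282 in Des+/+ non-swim, 480 to 779 in Des-/- non-swim, 356 to 485 in Des+/+ swim and 461 to 518 in Des-/- swim, where the genotypes overlapped. Vim was its largest part in each group.

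**Figure D4:**
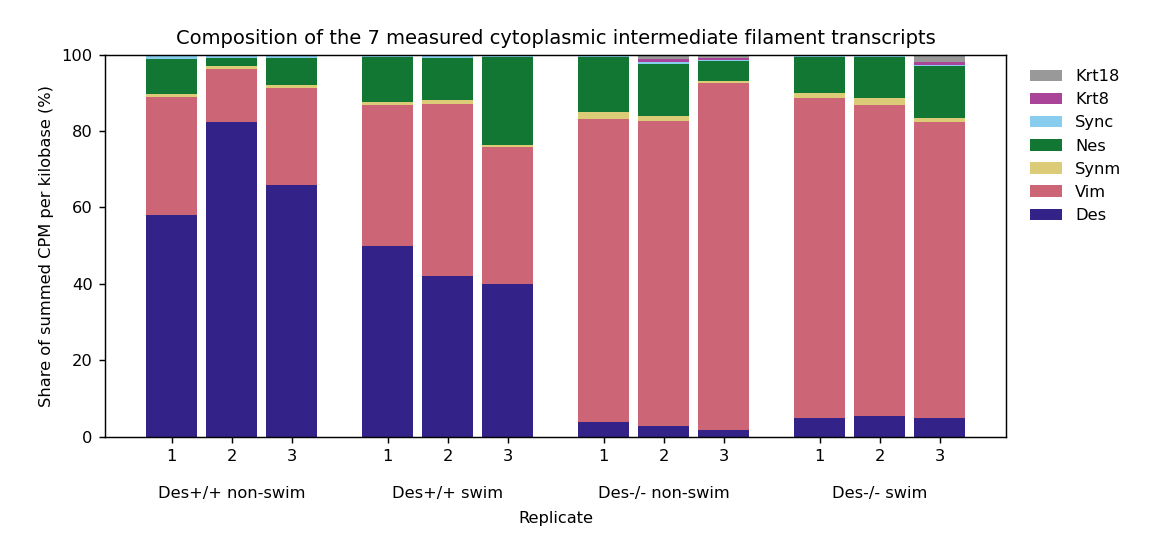
Share of each gene in the summed CPM per kilobase of the 7 genes (y, percent, from 0), 1 bar per library. Des holds 58.1 to 82.5% in Des+/+ non-swim, 39.9 to 49.8% in Des+/+ swim and 1.69 to 5.34% in Des-/-, where Vim holds 77.4 to 90.9%.

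Of the other cytoplasmic intermediate filament genes, 17 were listed and 5 were expressed enough to be tested. Prph, which encodes peripherin of peripheral neurons, was higher in Des-/- in both conditions: it rose from 1.51 ± 0.496 (SD, n = 3) to 7.94 ± 3.43 CPM without swimming (change 2.38, SE 0.43, adjusted p = 0.00233) and stood at 1.06 ± 0.310 and 7.47 ± 2.12 CPM after it (change 2.79, SE 0.45, adjusted p = 0.0106). Bfsp1, the lens filament protein filensin, was higher without swimming (2.15, adjusted p = 0.0271). Its level there was near the counting limit, at 0.701 to 1.41 CPM in Des+/+ and 2.83 to 7.12 CPM in Des-/-. Thus 2 of 5 were called higher without swimming and 1 after it, beside 14.0% and 5.01% of all genes. The simple keratins Krt7 and Krt19 had changes of 1.73 (adjusted p = 0.144) and 1.91 (adjusted p = 0.0869) without swimming. Krt19 is also on the mesothelial list. Markers of Schwann cells, which accompany peripheral nerves, summed to 25.9 to 42.0 CPM in Des+/+ non-swim and 30.8 to 33.9 CPM in Des-/- non-swim, with overlap. After swimming they summed to 17.2 to 24.6 CPM in Des+/+ and 25.6 to 45.1 CPM in Des-/-, without overlap, and the 5 tested markers all had positive changes (median 0.83 beside 0.02 over all genes), 0 of them called by edgeR (1 at an unadjusted p under 0.05, 0 by DESeq2). Their part in the Prph result was not tested.

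The nuclear lamins, which form the filament layer under the nuclear envelope, were higher in Des-/- without swimming for all 3 genes: Lmna by 0.88, Lmnb1 by 1.63 and Lmnb2 by 1.03 (adjusted p = 0.0378, 0.0105 and 0.015), beside 14.0% of all genes called higher. The fibroblast and macrophage sums were also higher in these libraries, and their part was not tested. Lmna lost its call without replicate 3 of both Des-/- groups. After swimming 0 of 3 were called by edgeR (0 at an unadjusted p under 0.05, 0 by DESeq2), with a median change of 0.17 beside 0.02 over all genes.

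Transcripts of proteins that link intermediate filaments to junctions, Z-discs and the dystrophin complex were mostly lower where they changed. Of 13 linkers, 6 were lower and 2 higher in Des-/- without swimming, with a median change of -0.34 beside 0.04 over all genes, of which 18.0% were lower. The lower genes were Dsp (desmoplakin of desmosomes, -1.97), Pkp2 (plakophilin of the same junctions, -1.85), Nebl (a Z-disc protein, -1.98), Flnc (filamin C, -1.33), Dtna (α-dystrobrevin, -1.84) and Dmd (dystrophin, -1.11). Dsp was 1194 ± 397 CPM in Des+/+ non-swim and 306 ± 233 CPM in Des-/- non-swim. The higher genes were Evpl (envoplakin, 1.96) and Syne3 (nesprin-3 of the nuclear envelope, 0.86). Evpl was near the counting limit, at 0.818 to 1.18 CPM in Des+/+ non-swim and 1.38 to 6.57 CPM in Des-/- non-swim. After swimming Syne3 had -0.78 (adjusted p = 0.0639). Plec, the plectin cross-linker, had 0.04 without swimming (adjusted p = 0.884).

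After swimming 1 of 13 linkers was lower, Nebl, at 111 ± 16.5 CPM in Des+/+ and 47.6 ± 14.6 CPM in Des-/- (-1.22, adjusted p = 0.0444). That count is close to the 5.57% of all genes called lower. DESeq2 called 6 lower and 1 higher there, beside 9.29% and 8.54% of genes. Of 8 chaperones and turnover factors, 3 were lower and 1 higher without swimming, beside 18.0% and 14.0% of all genes, with a median of -0.49 beside 0.04 over all genes. Cryab, the αB-crystallin chaperone of desmin, was 870 ± 184 CPM in Des+/+ and 235 ± 49.0 CPM in Des-/- (-1.89, SE 0.21, adjusted p = 0.000704). Bag3, a co-chaperone at the Z-disc, had -1.06, Mtm1 (myotubularin) -0.81, and the protease gene Capn1 0.43.

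Bag3 was the chaperone also called after swimming, at 389 ± 22.3 CPM in Des+/+ and 209 ± 7.49 CPM in Des-/- (-0.90, SE 0.18, adjusted p = 0.0156), while Cryab had -0.64 (adjusted p = 0.0601). DESeq2 called 3 lower, Bag3, Cryab and Hspb1, beside 9.29% of genes. Hspb1 after swimming was 567 ± 587 CPM in Des+/+, ranging from 187 to 1243, and 169 to 216 CPM in Des-/-, with overlap. The cardiomyocyte sum was also lower in Des-/- libraries in both conditions, and its part in the linker and chaperone results was not tested. In the swimming comparisons and the interaction none of these 4 lists had a gene called by edgeR. At an unadjusted p under 0.05 there were 6 of 13 linkers and 3 of 8 chaperones in Des+/+, beside 20.5% of all genes. In Des-/- there were 1 linker, 1 chaperone and 1 of 3 lamins (Lmnb1, -1.46), beside 16.7%, and in the interaction 3 linkers, 1 chaperone and 1 lamin, beside 16.3%. None of the 5 tested filament genes was among them. DESeq2 called 2 linkers and 1 chaperone in Des+/+, 1 lamin in Des-/- and 1 chaperone in the interaction.

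**Figure D5:**
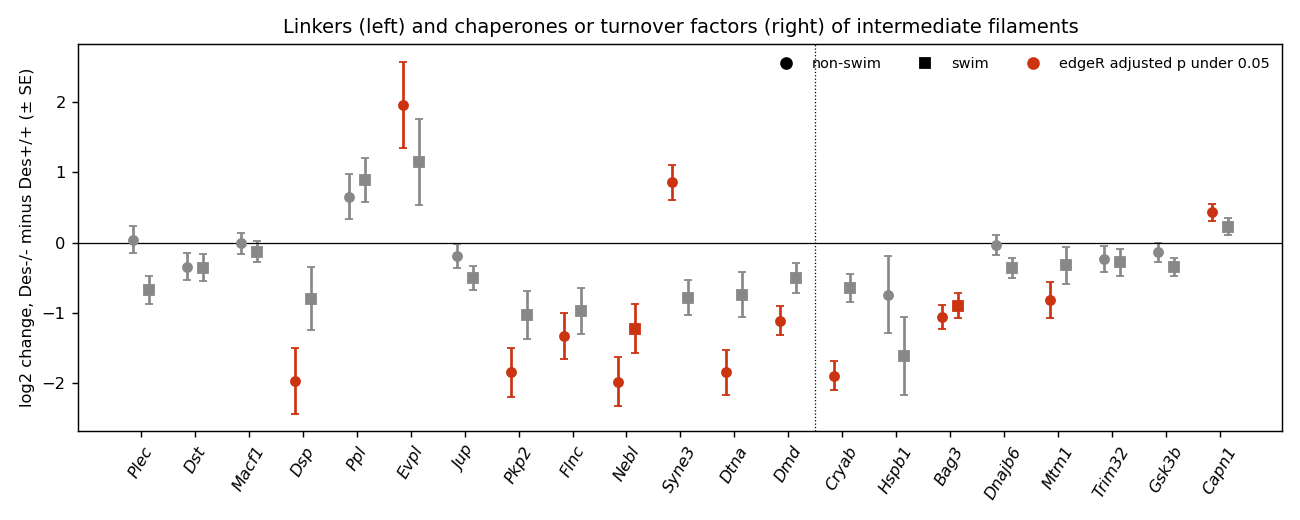
log2 change in Des-/- against Des+/+ (y, with SE) of 13 linkers (left of the dotted line) and 8 chaperones or turnover factors (right), circles without and squares after swimming, red where edgeR adjusted p was under 0.05. Dsp, Pkp2, Nebl, Flnc, Dtna, Dmd and Cryab lie below -1 without swimming, and Nebl and Bag3 are red in both conditions.

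Patterns across the 12 libraries were compared with those of 12151 genes by the root mean square difference of centred log2 CPM, as a description with no test. The genes most like Des were Efnb3 (0.90), Abca12 (0.93) and Tmem144 (0.98), a larger distance than for the nearest gene of any other member, Des itself having a root mean square deviation of 2.28. The nearest to Vim were Sh3bgrl3 (0.12), Ecm1 (0.19) and Ugdh (0.19), and to Nes Lrrc8b (0.30), Slc30a1 (0.30) and Pwwp2b (0.31). For Sync they were Pkia (0.20), Slc35f5 (0.20) and Gpr157 (0.21), and for Synm Btbd2, Hacl1 and Pacs1 (0.18 each). Krt7 was nearest to both keratins, followed by Myrf (0.55) and Clspn (0.66) for Krt8, where Krt7 had 0.42, and by Tmem119 (0.43) and C2 (0.44) for Krt18, where Krt7 had 0.38. Without replicate 3 of both Des-/- groups the 3 nearest genes of Des were the same 3, whereas for Vim, Nes, Sync, Krt8 and Krt18 1 of 3 and for Synm 0 of 3 were shared.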

How the data were processed

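Poly-A RNA of 12 cardiomyocyte libraries was sequenced as 100-base single-end reads. Per the study's methods and the submitters' processing notes, the authors aligned reads to GRCm38 with HISAT2 (2.2.1), sorted them with SAMtools (1.13) and deposited raw read counts per gene from HTSeq-count in reverse-strand mode. The labels name a TruSeq RNA v2 kit and the methods a directional kit. In reverse-strand counting, a library without strand would place reads of one gene on the opposite-strand gene where exons overlap. Of 93 such overlaps with at least 3000 reads expected in this way, 18 held under 1% of them. The remaining overlaps did not, and there the second gene's own reads were not told apart. Counting without strand would credit neither gene, so the check depends on the stated mode and does not settle the kit. GENCODE M21 lengths and positions were used here for 21488 of 21493 genes; the release used by the authors is not given in the sources used here.

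Counts were scaled by TMM and filtered by expression in edgeR (4.0.16, R 4.3.3), leaving 13158 genes. Each comparison was a contrast of group means in a quasi-likelihood model over all 12 libraries, without covariates, with Benjamini-Hochberg adjustment over all genes and a threshold of 0.05. SEs were derived from the F statistic. The script was tested on simulated data. Alternatives were other scalings (upper quartile, total counts, marker lists), other filters, DESeq2 (1.42.0), a replicate block, only the compared libraries, and leaving out libraries. The mesothelial and endothelial scalings were added after the data were seen. Labels give no batch. The members and lists were chosen with earlier results of these data known. All members were described, and of each list the called genes and up to 3 others were named, with the 3 genes nearest to each member by pattern (mean count of at least 20, prior count 2). Intervals and floors cover counting error only where they come from counts. Same-numbered libraries of Des-/- non-swim and Des-/- swim deviated together (correlations 0.36, 0.32 and 0.60), and those of the other comparisons did not all do so (-0.41 to 0.13).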

Additional observations from a re-analysis of the deposited data

How the results depend on the processing

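The number of members called, Des included, was 3 without and 2 after swimming. Scaled to the cardiomyocyte list it became 6 and 0, beside 12204 and 24 of 13158 genes. DESeq2 gave 2 in Des+/+ swimming and 1 in the interaction, beside 812 and 328 genes. Without replicate 3 of both Des-/- groups it was 1 in Des+/+ swimming, beside 743 genes. Between genotypes without and after swimming it was 3 and 3 with fibroblast scaling, beside 9445 and 1940 genes. Endothelial scaling gave 3 and 1, beside 2192 and 8, and mesothelial scaling 1 and 0, beside 11 and 16. It was 4 and 2 by DESeq2 (4790 and 2332 genes) and with total counts (5313 and 1554). Only the libraries compared (3420 and 1080) and leaving out replicate 3 of both Des-/- groups (3703 and 1579) also gave 4 and 2. Leaving out each library in turn gave 3 to 5, 1 to 2, and 0 in the swimming comparisons and the interaction. The replicate block gave 3 and 2 for genotype and 0 for swimming and the interaction, and changed no call of a member. Lengths of the longest transcript moved the Des share in Des-/- swim to 4.15% and the Vim shares in Des+/+ swim to 46.9% and in Des-/- swim to 86.1%. Over all genes the calls after swimming, 1392 in the main test, were 2332 by DESeq2 and 74 to 2142 with a library left out (74 without Des+/+ swim replicate 3); those for swimming, 12 and 3, were 812 and 339 by DESeq2, and 743 and 72 without replicate 3 of both Des-/- groups. With total counts 3716 of 5313 calls without swimming were higher, against 1840 of 4210.

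Directions turned as follows, and the cause was not tested. Synm without swimming was 0.033 under upper-quartile scaling, 0.20 under total counts, 2.60 scaled to the cardiomyocyte list and 0.185 without replicate 3 of both Des-/- groups. Cardiomyocyte scaling also gave 1.05 for Sync without swimming, 0.0075 for Nes after swimming, 0.088 for Sync in Des+/+ swimming, -0.28 for Des in Des-/- swimming, and -0.24 for Des and -1.53 for Sync in the interaction. The median of all genes was then 2.80, 0.92, 0.74, -1.05 and -1.84 in the 5 comparisons. Fibroblast scaling (medians -1.37, -0.84 and, in Des-/- swimming, 0.73) gave -0.12 for Vim and -0.88 for Nes without swimming, -0.39 for Vim and -0.47 for Synm after swimming, and 0.57, 0.47 and 0.16 for Vim, Nes and Sync in Des-/- swimming. Krt8 after swimming was -0.34 without replicate 3 of both Des-/- groups and -0.42 scaled to the mesothelial list. Under that scaling Krt18 was -0.11 and the median of all genes -1.28. Leaving out each library gave -0.28 to 0.16 for Synm without swimming, -0.35 to 2.54 for Krt8 after swimming, and -0.49 to 0.0011 for Vim and -0.32 to 0.043 for Nes in Des-/- swimming. Krt8 and Sync rest on few reads, which limits their precision.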
